A study of Mus musculus with 20 samples.

Results

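The 9 genes described here, Alas1, Alad, Uros, Urod, Cpox, Ppox, Fech, Hmox1 and Blvrb, encode enzymes that build heme in the liver or take it apart. They were chosen by name, each had 1 probe set assigned to it alone, and all 9 of 9 were measured among the 19661 genes with such a probe set. The study took livers of mice that lack the transcription factor CREM throughout the body (Crem-/-, KO) and of wild-type mice (WT), all 8 weeks old, untreated and of mixed background (129Pas x C57Bl/J), kept in a 12 h light and 12 h dark cycle with free food. The 20 arrays hold 1 mouse each and form 4 groups of 5 mice: KO and WT at 12 h, when the light went off, and KO and WT at 0 h, when it came on. Whole liver was hybridized, so that fewer cells of a type and less RNA per cell cannot be told apart. The batch label is a second division of the arrays: all 12 h arrays carry label 5, whereas the 0 h arrays carry labels 1 to 4, each with both genotypes, so time and batch label cannot be told apart.

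Heme is an iron-holding ring that lets hemoglobin, cytochromes P450, catalase and the respiratory chain carry oxygen or electrons. In hepatocytes its synthesis starts in the mitochondrion with ALAS1, the rate-limiting and most tightly controlled step, continues in the cytosol with enzymes that include ALAD, UROS and UROD, and returns to the mitochondrion for CPOX, PPOX and FECH, which inserts the iron. HMOX1 opens the ring to biliverdin, iron and carbon monoxide, and biliverdin reductases then make bilirubin. Hepatic Alas1 is known as a gene with a daily rhythm that also responds to fasting and to drugs, and heme itself lowers its expression and is a ligand of the clock repressors REV-ERBalpha and REV-ERBbeta. CREM and its relative CREB bind cAMP response elements (CREs), and one of the CREM products, ICER, is known to be rhythmic in several tissues.

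The stretch around the start of each gene shows which of these elements is written beside it. RefSeq windows of 300 bases (250 before and 50 after an annotated start, GRCm38.p6) were used. The 11 windows belonged to 7 members, all but Fech and Hmox1. They were searched on both strands for the CRE TGACGTCA (held by 1.79% of 32851 such mouse windows), its shortened form TGACG (20.8%, which includes every CRE), the E-box CACGTG of the clock activators (7.15%), the REV-ERB and ROR site AGGTCA (16.3%) and the antioxidant response element TGACNNNGC (4071 of the windows). No member window held the CRE, AGGTCA or TGACNNNGC. The short form TGACG was present once in an Alas1, an Alad, the Cpox and the Ppox window and 2 times in a Uros window. The E-box was present in both Alad windows, in a Uros window and in the Urod window. Neither Blvrb window held any of the 5 motifs. The windows of Alas1, Urod and Alad are printed because these are the member that rose most at 12 h, the member with a window that fell most, and a smaller riser that carries the same E-box letters as Urod. Capitals mark the matches: TGACG at position -186 of Alas1 counted from the start (chr9:106247905-106248204, minus strand), CACGTG at -49 of Urod (chr4:116994364-116994663, minus strand) and CACGTG at -28 of Alad (chr4:62519860-62520159, minus strand). A match is a run of letters and was not tested as a binding site.
Alas1: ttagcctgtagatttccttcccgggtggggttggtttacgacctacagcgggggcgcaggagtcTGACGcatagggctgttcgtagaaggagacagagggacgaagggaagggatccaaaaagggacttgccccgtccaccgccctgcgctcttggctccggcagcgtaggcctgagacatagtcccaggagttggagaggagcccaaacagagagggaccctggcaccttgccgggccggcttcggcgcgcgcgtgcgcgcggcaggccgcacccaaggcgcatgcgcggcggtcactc
Urod: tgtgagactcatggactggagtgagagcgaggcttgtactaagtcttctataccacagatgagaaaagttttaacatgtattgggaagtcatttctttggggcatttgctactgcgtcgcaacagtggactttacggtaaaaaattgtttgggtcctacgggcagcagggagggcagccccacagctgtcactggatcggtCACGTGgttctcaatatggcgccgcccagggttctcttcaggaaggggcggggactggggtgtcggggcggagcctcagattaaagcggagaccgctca
Alad: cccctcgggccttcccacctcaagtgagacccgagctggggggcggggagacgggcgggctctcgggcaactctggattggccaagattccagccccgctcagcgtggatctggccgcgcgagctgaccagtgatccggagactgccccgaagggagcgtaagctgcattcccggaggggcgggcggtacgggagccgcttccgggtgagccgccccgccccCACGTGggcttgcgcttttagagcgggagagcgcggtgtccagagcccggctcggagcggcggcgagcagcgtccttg

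Values are log2 intensities after RMA (robust multi-array averaging), so a difference of 1 stands for a doubling and levels of different genes are not compared. A gene was called when its p from limma, adjusted over all 25689 probe sets with values by the Benjamini-Hochberg method, was under 0.05, and every adjusted p below is of this kind. Array medians were 7.13 to 7.17 in KO and 7.07 to 7.15 in WT livers at 12 h, and 7.19 to 7.23 in KO and 7.18 to 7.24 in WT livers at 0 h. The number of mice limits the precision of every value. WT mouse 80 at 0 h and WT mouse 170 at 12 h had the lowest array weights (0.566 and 0.684, against 0.795 to 1.40 for the other 18 arrays). Leaving out both changed no call of a member. Hepatocyte markers such as Alb, Apoa1 and Apoa2 were high on every array. The summed linear intensity of the 14 markers was 153660 to 159024 in KO and 158778 to 165301 in WT livers at 12 h. At 0 h it was 161371 to 169809 in KO and 160201 to 172901 in WT livers. In KO the 12 h sums thus lay below all 0 h sums, a difference that was not tested. Crem itself was 7.67, 7.48, 7.83, 7.64 and 7.39 in KO livers at 12 h and 8.01, 8.02, 7.90, 8.01 and 7.93 in WT livers at 12 h, with no overlap. At 0 h it was 8.07, 7.87, 8.17, 7.69 and 7.43 in KO livers and 8.42, 8.31, 8.54, 8.11 and 8.24 in WT livers, where KO mouse 1 (8.17) lay above WT mouse 80 (8.11). Over both times Crem was lower in KO by 0.42 (KO minus WT -0.42, SE 0.08, adjusted p = 0.135), which did not pass the threshold; the sources used here do not say how much of the deleted part its probe set covers. Crem passed without KO mouse 1 (KO minus WT -0.46, adjusted p = 0.0494). Without that mouse the only member call lost was that of Ppox in KO.

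The main difference among the heme genes lay between the times of day and centred on Alas1, the first enzyme. Its level was 12.97, 13.07, 13.15, 12.86 and 13.12 in KO livers at 12 h (mice 18, 55, 109, 110 and 166), against 11.21, 11.04, 11.81, 11.52 and 10.54 in KO livers at 0 h (mice 77, 143, 1, 144 and 76). In WT livers it was 13.22, 13.07, 12.90, 12.85 and 12.89 at 12 h (mice 111, 167, 168, 169 and 170), against 11.05, 10.97, 12.47, 11.62 and 11.60 at 0 h (mice 146, 78, 145, 80 and 147). Every 12 h liver stood above every 0 h liver, and the 10 livers at 12 h lay much closer together than those at 0 h. Alas1 rose 3.51-fold in KO (log2 1.81, 95% interval 1.35 to 2.27, adjusted p = 3.88e-06) and 2.72-fold in WT (log2 1.44, 0.98 to 1.90, adjusted p = 5.4e-05). Over both genotypes the rise was 3.09-fold (log2 1.63, SE 0.16, interval 1.30 to 1.95, adjusted p = 4.14e-08), the 37th largest difference of the 25689 probe sets. The SD of Alas1 was 0.12 in KO and 0.15 in WT livers at 12 h, and 0.48 in KO and 0.60 in WT livers at 0 h (n = 5 each).

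Across the pathway, 6 of the 9 members passed the test between 12 h and 0 h over both genotypes, where 39.3% of all probe sets did (10108 of 25689). Alas1, Alad, Ppox and Fech rose and Urod and Hmox1 fell, that is 4 members higher (background 18.1% of probe sets) and 2 lower (21.2%), while Uros, Cpox and Blvrb did not pass. The median of the 9 log2 differences was 0.21, beside -0.03 over all probe sets. In KO alone 6 members passed where 20.3% of probe sets did, with Alas1, Ppox and Fech higher (10.6%) and Uros, Urod and Hmox1 lower (9.69%). In WT alone 3 passed where 27.8% did, with Alas1 higher (13.5%) and Urod and Hmox1 lower (14.3%). In each genotype, the 5 livers at 12 h did not overlap the 5 at 0 h for Alas1, Urod and Hmox1, and in KO also for Fech, that is 4 members in KO (16.4% of probe sets) and 3 in WT (17.5%). Centring each array on its median moved the split of all calls over both genotypes to 6707 higher of 9786, beside 4651 higher of 10108 as deposited, and the number of members called in WT to 5, Alad and Fech being added.

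**Figure D1:**
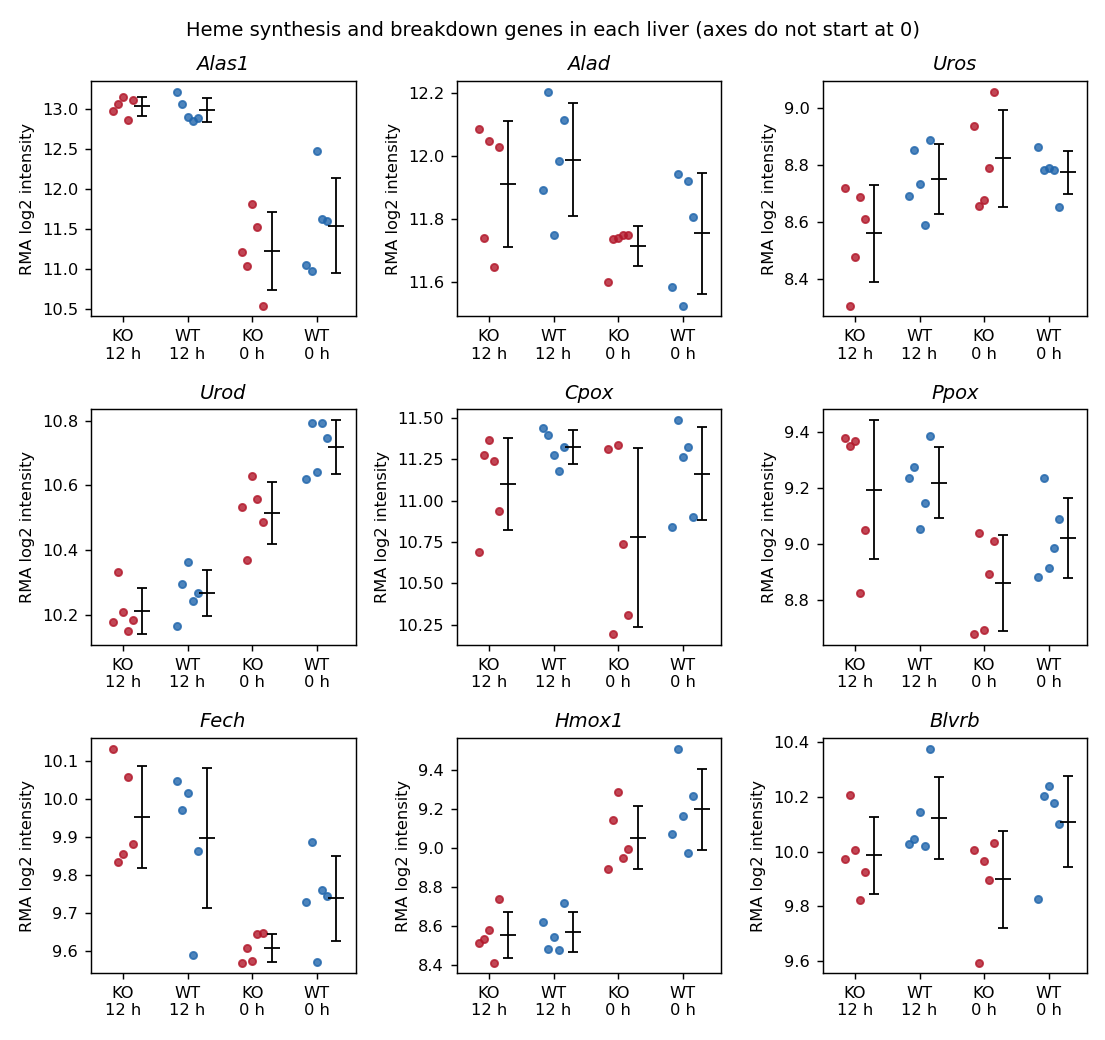
RMA log2 intensity (vertical axes, which do not start at 0) of the 9 genes in each liver; each point is 1 mouse, red for KO and blue for WT, the groups run from KO at 12 h to WT at 0 h, and the black bar beside each group is its mean with 1 SD (n = 5). Alas1 is high and tightly grouped at 12 h, Urod and Hmox1 are low at 12 h without overlap, and Cpox is spread most widely in KO livers at 0 h (10.19 to 11.34).

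The cytosolic steps that follow Alas1 did not move as a block. Alad, whose product is the pyrrole porphobilinogen, was 12.09, 11.74, 12.05, 11.65 and 12.03 in KO livers and 11.89, 12.20, 11.75, 11.98 and 12.11 in WT livers at 12 h. At 0 h it was 11.60, 11.74, 11.74, 11.75 and 11.75 in KO livers and 11.58, 11.94, 11.53, 11.92 and 11.80 in WT livers. The groups overlapped in both genotypes, yet the 1.16-fold rise over both (log2 0.21, interval 0.06 to 0.37, adjusted p = 0.0236) passed, while neither genotype alone did (log2 0.20, adjusted p = 0.194 in KO and 0.23, adjusted p = 0.0967 in WT). In WT the rise passed without mouse 168 (log2 0.29, adjusted p = 0.0466).

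Uros, which closes the ring, was 8.72, 8.31, 8.48, 8.69 and 8.61 in KO livers at 12 h and 8.94, 8.66, 8.68, 8.79 and 9.06 in KO livers at 0 h. In WT it was 8.69, 8.85, 8.73, 8.59 and 8.89 at 12 h and 8.86, 8.78, 8.79, 8.78 and 8.65 at 0 h. It fell by 0.26 on the log2 scale in KO (SE 0.09, adjusted p = 0.0423) and differed by -0.02 in WT (adjusted p = 0.880), but the difference between the genotypes was itself not called (log2 -0.24, interval -0.51 to 0.02, adjusted p = 0.751). The call in KO rested on single mice: it was lost without KO mouse 77, 144 or 76 at 0 h and without KO mouse 55, 109 or 166 at 12 h (adjusted p = 0.0551 to 0.129). It was also lost with the batch label as a random block, with only the KO arrays compared and with each array centred (adjusted p = 0.0554, 0.0812 and 0.136).

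Urod, whose enzyme trims the side chains of uroporphyrinogen and has low activity in human porphyria cutanea tarda, fell. It was 10.18, 10.33, 10.21, 10.15 and 10.18 in KO livers at 12 h, against 10.53, 10.37, 10.63, 10.56 and 10.49 in KO livers at 0 h. In WT livers it was 10.17, 10.30, 10.36, 10.24 and 10.27 at 12 h, against 10.62, 10.79, 10.64, 10.79 and 10.75 at 0 h. No liver at 12 h reached the lowest liver at 0 h of its genotype. The level at 12 h was 0.769 of that at 0 h over both genotypes (log2 -0.38, SE 0.05, adjusted p = 1.15e-06), 0.810 in KO (log2 -0.30, adjusted p = 0.00167) and 0.731 in WT (log2 -0.45, adjusted p = 2.7e-05).

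Of the late mitochondrial steps, Cpox varied most among mice and did not pass. It was 10.69, 11.28, 11.37, 11.24 and 10.94 in KO livers at 12 h and 11.31, 10.19, 11.34, 10.74 and 10.31 in KO livers at 0 h, with KO mice 143 and 76 at the low end and KO mice 77 and 1 at the high end of the 0 h livers. In WT it was 11.44, 11.40, 11.28, 11.18 and 11.33 at 12 h and 10.84, 11.49, 11.26, 11.33 and 10.90 at 0 h. The difference over both genotypes was 0.24 (interval -0.04 to 0.52, adjusted p = 0.161).

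Ppox, which oxidizes the ring to protoporphyrin, was 9.38, 9.35, 9.37, 8.82 and 9.05 in KO and 9.23, 9.27, 9.05, 9.14 and 9.38 in WT livers at 12 h. At 0 h it was 8.68, 9.04, 8.69, 8.89 and 9.01 in KO and 8.88, 9.23, 8.91, 8.98 and 9.09 in WT livers. The 12 h and 0 h livers overlapped in both genotypes, with KO mouse 110 at 12 h as low as the 0 h livers. Ppox rose 1.20-fold over both genotypes (log2 0.26, interval 0.11 to 0.42, adjusted p = 0.00872) and by 0.33 in KO (adjusted p = 0.0329), and was 0.20 higher in WT (adjusted p = 0.181). Quantile normalization ended the call over both genotypes (log2 0.18, adjusted p = 0.0701) and in KO (adjusted p = 0.0897), and the call in KO was also lost with only KO arrays compared (adjusted p = 0.0624) and without KO mouse 77, 1, 18, 55 or 109 (adjusted p = 0.0837 to 0.0896).

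Fech, the ferrochelatase that ends the pathway, was 10.13, 9.83, 9.85, 10.06 and 9.88 in KO livers at 12 h, all above the 9.57, 9.61, 9.57, 9.64 and 9.65 of KO livers at 0 h. In WT it was 10.05, 9.97, 10.01, 9.59 and 9.86 at 12 h and 9.73, 9.89, 9.57, 9.76 and 9.74 at 0 h, and WT mouse 169 (9.59) set the overlap. It rose by 0.34 in KO (SE 0.08, adjusted p = 0.00548) and 1.19-fold over both genotypes (log2 0.25, adjusted p = 0.00213). In WT alone the difference was 0.16 (adjusted p = 0.17), and it passed without mouse 169 (log2 0.24, adjusted p = 0.0273).

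On the breakdown side, Hmox1, the inducible heme oxygenase, fell. It was 8.51, 8.53, 8.58, 8.41 and 8.73 in KO livers at 12 h, against 8.89, 9.14, 9.29, 8.95 and 8.99 in KO livers at 0 h. In WT livers it was 8.62, 8.48, 8.54, 8.48 and 8.72 at 12 h, against 9.07, 9.51, 9.16, 8.97 and 9.27 at 0 h. Every 12 h liver was below every 0 h liver. The level at 12 h was 0.677 of that at 0 h over both genotypes (log2 -0.56, SE 0.07, adjusted p = 9.29e-07), 0.708 in KO (adjusted p = 0.000598) and 0.647 in WT (adjusted p = 4.95e-05). Hmox1 is also a known gene of Kupffer cells, the liver macrophages that digest red cells, and their markers moved as well: of 14 listed markers 10 fell and 2 rose over both genotypes, with a median of -0.29, where 21.2% of all probe sets fell and 18.1% rose. In KO alone 3 markers fell and 1 rose (median -0.19), where 9.69% of probe sets fell. In WT alone 9 fell and 1 rose (median -0.40), where 14.3% fell. None of the 14 was called for a difference between the genotypes in this change. Over both genotypes Clec4f fell by 0.57, Vsig4 fell by 0.59 and Cd5l fell by 0.27 on the log2 scale, while the 2 that rose were Cd163 by 0.77 (adjusted p = 1.14e-05) and Csf1r by 0.17 (adjusted p = 0.0474), named after their values were seen. The difference was -0.39 in KO and -0.74 in WT for Clec4f, -0.55 and -0.62 for Vsig4, and -0.05 and -0.49 for Cd5l. The summed linear intensity of the 14 markers was 9109 to 12098 in KO and 8716 to 10983 in WT livers at 12 h, and 9883 to 13339 in KO and 11589 to 13834 in WT livers at 0 h, and the means of Clec4f, Vsig4 and Cd5l over all arrays were 10.38, 10.58 and 10.20, well above the array medians. The part of these cells in the fall of Hmox1 was not tested.

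Blvrb, the second biliverdin reductase, did not pass. It was 9.97, 10.21, 10.01, 9.82 and 9.93 in KO and 10.03, 10.05, 10.15, 10.02 and 10.38 in WT livers at 12 h. At 0 h it was 10.01, 9.59, 9.97, 9.90 and 10.03 in KO and 9.83, 10.20, 10.24, 10.18 and 10.10 in WT livers. The time difference was 0.05 (interval -0.09 to 0.20, adjusted p = 0.591).

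**Figure D2:**
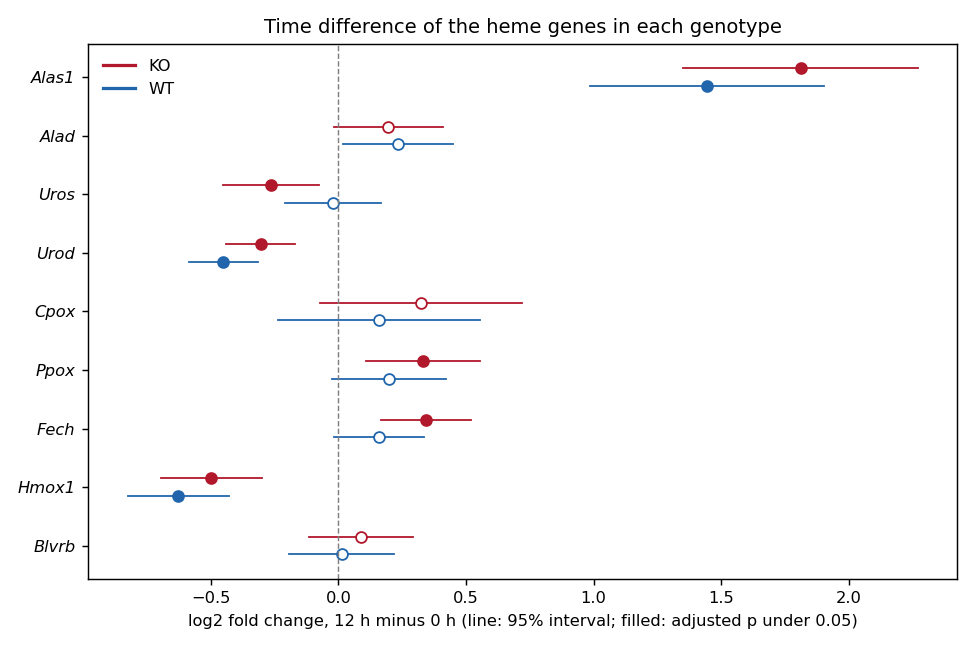
Difference between 12 h and 0 h (horizontal axis, log2 fold change) of the 9 genes, KO in red above WT in blue; points are fitted differences, lines their 95% intervals, filled points have an adjusted p under 0.05. Alas1 stands far to the right in both genotypes (1.81 in KO and 1.44 in WT), Urod and Hmox1 lie left of 0 in both, and the intervals of KO and WT overlap for every gene.

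The 0 h arrays give a measure of how far livers of 1 time differ between batch labels. The largest difference between the means of labels 1 to 4 was 0.80 for Alas1, 0.37 for Hmox1 and 0.20 for Urod. Each was smaller in size than the time difference of its gene, and the same held for Ppox and Fech. For Alad (0.20 beside 0.21) and Uros (0.12 beside -0.14, not called) the difference between labels was smaller by little. For Cpox (0.81) and Blvrb (0.29) it exceeded the time difference. These means rest on few livers with unequal shares of KO and WT. The arrays of the other time carry none of these labels, so this spread cannot measure the effect of their own label. Time and label therefore remain unseparated for every member. Livers of 1 label differed as well: within label 3, WT mice 145 and 80 had 12.47 and 11.62 for Alas1, and within label 1, KO mice 77 and 143 had 11.31 and 10.19 for Cpox. With the label as a random block (correlation 0.0286) the only member call lost was that of Uros in KO.

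**Figure D3:**
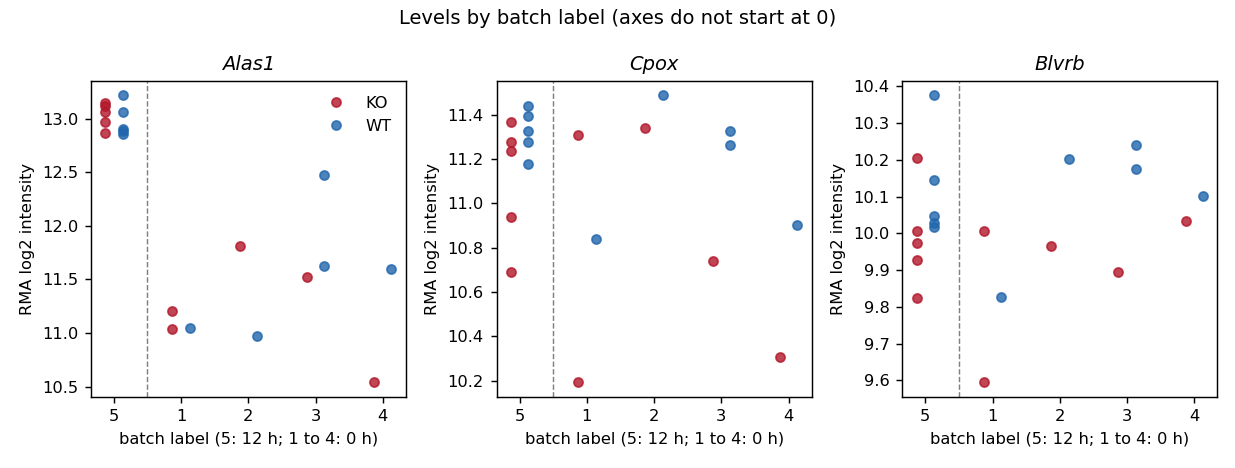
RMA log2 intensity (vertical axes, which do not start at 0) of Alas1, Cpox and Blvrb by batch label, with label 5 (all 12 h livers) left of the dashed line and labels 1 to 4 (all 0 h livers) right of it; points are mice, red for KO and blue for WT. All 10 points of label 5 are above the others for Alas1, while for Cpox and Blvrb they lie within the range of labels 1 to 4 or, for 1 WT liver at 10.38, above it.

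Loss of CREM was compared with WT at each time, and no member passed in any of the 4 genotype comparisons. The calls over all probe sets were few as well by limma: 0.0234% at 12 h (6 of 25689), 0% at 0 h (0), 0.0117% over both times (3), and 0% for the difference between the genotype effects at the 2 times (0). At an unadjusted p under 0.05 there were 3216 at 12 h, 1148 at 0 h, 2537 over both times and 1757 for the difference of effects. All 9 members had a lower mean in KO over both times, with a median log2 difference of -0.09 where the median of all probe sets was 0.00 and 49.3% of them were below 0. The differences of the members ran from -0.30 to -0.04 and their adjusted p from 0.380 to 0.859. At 12 h 7 of the 9 and at 0 h 8 of the 9 were below 0, where the medians of all probe sets were 0.0013 and -0.00077. Some of these were near 0 and turned sign in a refit: Hmox1 (-0.014) and Ppox (-0.025) at 12 h and Alad (-0.041) at 0 h. So did Fech at 12 h (0.055) and Uros at 0 h (0.049), which were above 0.

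Over both times the members furthest from 0 were Cpox, Blvrb, Alas1 and Urod. At 12 h, Uros was the only member with an unadjusted p under 0.05 by limma. Its KO minus WT there was -0.19 (interval -0.38 to -0.0038, unadjusted p = 0.0459 and adjusted p = 0.389 by limma). Cpox was 11.10 ± 0.28 in KO and 11.32 ± 0.10 in WT livers at 12 h, and 10.78 ± 0.54 in KO and 11.16 ± 0.28 in WT livers at 0 h (SD, n = 5 each). Its difference over both times was -0.30 (interval -0.58 to -0.02, unadjusted p = 0.0343 and adjusted p = 0.467 by limma). Blvrb was 9.99 ± 0.14 in KO and 10.12 ± 0.15 in WT livers at 12 h, and 9.90 ± 0.18 in KO and 10.11 ± 0.17 in WT livers at 0 h (SD, n = 5 each), a difference of -0.17 over both times (interval -0.32 to -0.03, adjusted p = 0.435 by limma). Urod was 10.21 ± 0.07 in KO and 10.27 ± 0.07 in WT livers at 12 h, and 10.52 ± 0.10 in KO and 10.72 ± 0.08 in WT livers at 0 h (SD, n = 5 each). Its difference was -0.06 at 12 h (adjusted p = 0.774), -0.20 at 0 h (interval -0.34 to -0.07, unadjusted p = 0.00499 and adjusted p = 0.987 by limma) and -0.13 over both times (adjusted p = 0.380). Alas1 differed by 0.05 at 12 h (interval -0.41 to 0.51) and by -0.32 at 0 h (interval -0.78 to 0.14), so a change of the size of its day rise is outside both intervals. The value at 0 h rested on single mice: it was -0.09 without WT mouse 145 (12.47) and -0.15 without KO mouse 76 (10.54).

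Within batch labels the genotype differences were taken as values with no test, from 1 or 2 livers of each genotype at 0 h. Urod was lower in KO in all 5 labels, by -0.06 in label 5 (12 h) and by -0.17, -0.16, -0.16 and -0.26 in labels 1 to 4. Cpox, Ppox, Hmox1 and Blvrb were also lower in KO in all 5, but in label 5 by only -0.014 for Hmox1 and -0.025 for Ppox. The share of all probe sets that keep 1 sign in all 5 labels was not counted, so no effect on the pathway is read from this. Alas1 did not keep 1 sign: KO minus WT was 0.05 in label 5 and 0.08, 0.83, -0.52 and -1.06 in labels 1 to 4. With the label as a fixed block no member passed either.

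**Figure D4:**
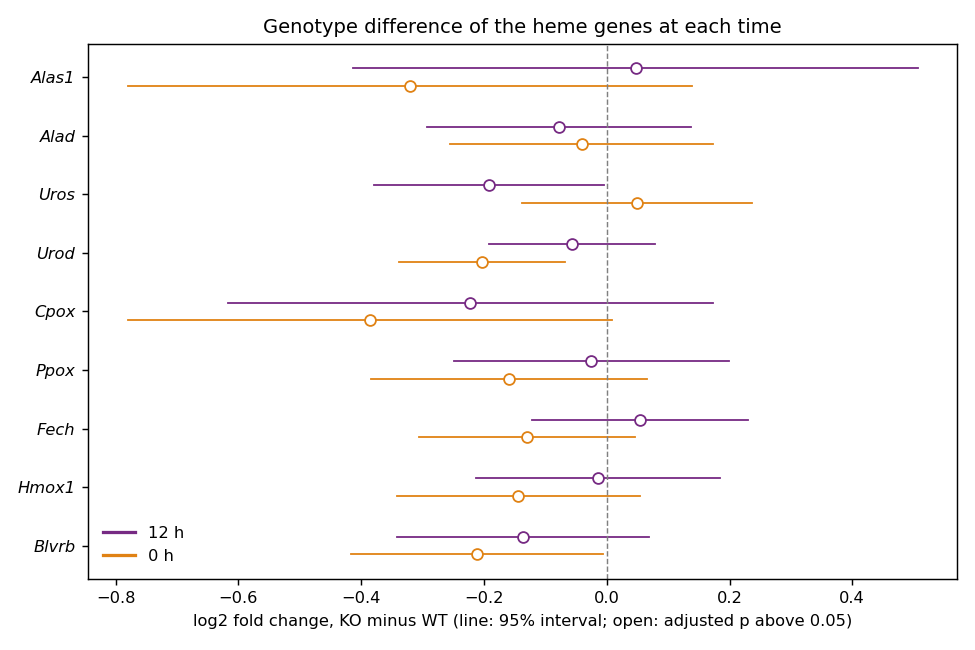
Difference between KO and WT (horizontal axis, log2 fold change) of the 9 genes, 12 h in purple above 0 h in orange; points are fitted differences, lines their 95% intervals, and open points have an adjusted p above 0.05. No point is filled, most points lie left of 0, and the widest intervals belong to Alas1 and Cpox.

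The size of the time difference was also compared between genotypes, and no member passed. For Alas1 the rise was larger in KO than in WT by 0.37 on the log2 scale (interval -0.28 to 1.02, adjusted p = 0.854), for Fech by 0.19 (interval -0.06 to 0.43, adjusted p = 0.803), and the fall of Urod was smaller in KO by 0.15 (interval -0.04 to 0.34, adjusted p = 0.798). These intervals are wide beside the differences, so neither a gain nor a loss of that size could be told from the spread between mice. For Alas1 the difference was 0.14 without WT mouse 145 and 0.20 without KO mouse 76.

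Other enzymes of the same steps were read beside the members. Alas2, the red-cell form of the first enzyme, was lower at 12 h over both genotypes by 0.29 (log2 -0.29, adjusted p = 0.0050), opposite in sign to Alas1. It was 11.11 ± 0.15 in KO and 11.03 ± 0.27 in WT livers at 12 h and 11.36 ± 0.14 in KO and 11.36 ± 0.11 in WT livers at 0 h (SD, n = 5 each), passing in WT (-0.33, adjusted p = 0.0257) and not in KO (-0.24, adjusted p = 0.122). The call in WT was lost without WT mouse 80 at 0 h and without WT mouse 170 at 12 h (-0.22 and adjusted p = 0.0841 without mouse 170), and Alas2 passed in KO without mouse 170. Of 16 red-cell markers 7 were measured, the globins not among them, and over both genotypes Alas2 fell, Klf1 and Tfrc rose and the other 4 did not pass, where 18.1% of all probe sets rose and 21.2% fell. The summed linear intensity of the 7 markers was 3674 to 4668 in KO and 2952 to 4623 in WT livers at 12 h, and 3741 to 4732 in KO and 3774 to 4611 in WT livers at 0 h. This sum includes Alas2 itself, the brightest of them (mean 11.22 over all arrays), followed by Tfrc (10.14). The others had means from 4.53 (Rhag) to 7.54 (Klf1). The sum is therefore not a measure of red cells apart from Alas2. The part of red cells in the level of Alas2 was not tested. Hmox2, the constitutive heme oxygenase, differed by -0.11 (adjusted p = 0.0498) and Blvra, the main adult biliverdin reductase, by 0.01 (adjusted p = 0.882).

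Genes that carry precursors, iron and heme, or that control the ALAS1 protein, moved with the time of day as well. Of 18 listed, 16 were measured, 8 rose and 4 fell over both genotypes, with a median of 0.15 beside -0.03 over all probe sets. In that comparison 18.1% of all probe sets were called higher and 21.2% lower. Clpx stood out with the largest difference of the list. It encodes the unfoldase of the mitochondrial protease CLPXP, which in human cells degrades ALAS1 when heme is plentiful. Clpx was 10.20, 9.99, 9.85, 10.35 and 9.93 in KO and 10.32, 10.24, 10.87, 10.61 and 10.25 in WT livers at 12 h. At 0 h it was 11.78, 11.83, 11.88, 11.94 and 11.82 in KO and 11.98, 11.80, 11.90, 11.72 and 11.79 in WT livers. No 12 h liver came near a 0 h liver, and the level at 12 h was 0.334 of that at 0 h (log2 -1.58, SE 0.08, adjusted p = 1.6e-12), the 39th largest difference of all probe sets beside the 37th of Alas1 in the other direction. KO minus WT of Clpx was -0.39 at 12 h (adjusted p = 0.154) and 0.01 at 0 h (adjusted p = 0.998). The mitochondrial iron importers rose, Slc25a37 by 0.56 and Slc25a28 by 0.44, together with Slc25a39, the mitochondrial glutathione carrier, by 0.50 and Flvcr1, first described as a heme exporter, by 0.44. The porphyrin exporter Abcg2 fell by 0.19 (adjusted p = 0.0331, a call lost without any 1 of 10 arrays), and the heme-binding proteins Pgrmc1 and Pgrmc2 fell by 0.20 and 0.26.

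Among transcription factors and coregulators known to act on Alas1 or Hmox1, 15 of the 20 measured (21 listed) rose and 1 fell, with a median of 0.56. The background was 18.1% of all probe sets higher and 21.2% lower. The PAR bZIP factors Dbp and Tef, which feed the clock's rhythm into drug metabolism, rose by 2.89 and 1.76, and Nr1d2 and Nr1d1, which encode the heme-sensing REV-ERBs, rose by 2.73 and 1.47. Egr1, an immediate early factor, fell by 0.62 (adjusted p = 0.0160). That fall was -1.04 in KO and -0.21 in WT, and the difference between them was -0.83 and not called. Much of its size came from KO mouse 144 at 0 h, at 9.78 beside a median of 7.97 in its group: without that mouse Egr1 fell by 0.43 over both genotypes (adjusted p = 0.00337) and by 0.64 in KO (adjusted p = 0.00526), and the difference between KO and WT was -0.44. Of the regulators of Hmox1 in the list, Bach1, its heme-sensing repressor, rose by 0.35 (adjusted p = 1.19e-05). Nfe2l2, which encodes its activator NRF2, differed by -0.06 and did not pass (adjusted p = 0.463). Of the Maf genes in the list, Mafg rose by 0.65 (adjusted p = 3.36e-07). Mafk (0.12, adjusted p = 0.107) and Maff (-0.16, adjusted p = 0.111) did not pass. Bach1, Nfe2l2 and the Maf genes were named after their values were seen.

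**Figure D5:**
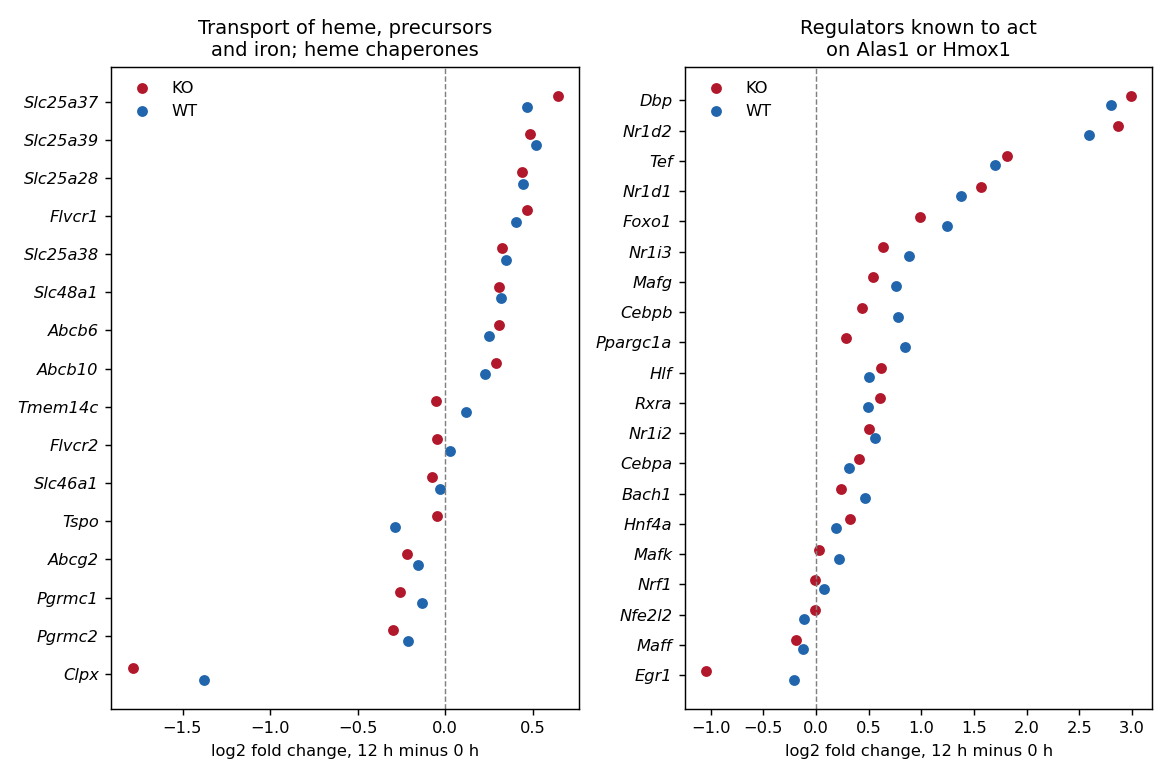
Difference between 12 h and 0 h (horizontal axes, log2 fold change) of the 16 measured transport and turnover genes (left) and the 20 measured regulators (right), each gene a row ordered by its difference over both genotypes, KO in red and WT in blue. Clpx lies alone at the lower left (-1.78 in KO and -1.38 in WT), and Dbp, Nr1d2, Tef and Nr1d1 head the regulators in both genotypes.

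Genes whose proteins use heme were split. Of 21 listed, 19 were measured, 5 rose and 7 fell over both genotypes, with a median of 0.00, where 18.1% of all probe sets rose and 21.2% fell. The fatty acid hydroxylases Cyp4a14 and Cyp4a10 rose by 1.45 each, and Cyp7a1, the rate-limiting enzyme of bile acid synthesis, rose by 1.15. The time difference of Cyp4a14 was 0.53 in KO and 2.37 in WT, and that of Cyp4a10 was 1.03 in KO and 1.87 in WT. Between the genotypes these differed by -1.85 and -0.84, which was not called. WT livers at 12 h were spread widely for Cyp4a14, from 8.01 to 11.87. The caffeine-metabolizing Cyp1a2 rose by 0.18. Cyp8b1, which directs bile acids to cholic acid, fell by 0.55, the drug-metabolizing Cyp3a11 fell by 0.33, and Tdo2, the tryptophan dioxygenase, and Sdhc, a subunit of succinate dehydrogenase, fell by 0.21 and 0.20. KO minus WT of Cyp4a14 and Cyp4a10 over both times was -1.57 and -1.18, and no gene of this or any other list passed a genotype comparison with all arrays. Without WT mouse 170 the difference of Cyp4a14 over both times was -1.24 and passed (adjusted p = 0.0146). At 12 h Cyp4a14 (-2.49, adjusted p = 0.0529) passed without WT mouse 167, 169 or 170, and Cyp4a10 (-1.60, adjusted p = 0.0900) without WT mouse 169.

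Of the genes that clear free heme and bilirubin, 5 of 11 measured (12 listed) rose and 3 fell, where 18.1% of all probe sets rose and 21.2% fell. The organic anion carrier Slco1a4 rose by 1.27, Cd163, the macrophage receptor for hemoglobin bound to haptoglobin, rose by 0.77, and the export pumps Abcc3 and Abcc2 rose by 0.59 and 0.56. The plasma scavengers fell, Hpx (hemopexin) by 0.30, Hp (haptoglobin) by 0.24 and Ambp, the precursor of the heme-binding alpha-1-microglobulin, by 0.16. Of 8 measured genes (10 listed) that, like Hmox1, are known targets of NRF2 or BACH1, 4 rose and 2 fell: Nqo1 rose by 0.28, Txnrd1 by 0.25, the iron exporter Slc40a1 by 0.22 and Gclm by 0.14, while Gclc fell by 0.45 and Srxn1 by 0.21. The calls of Nqo1 and Gclm were lost without any 1 of 11 and of 7 arrays (adjusted p up to 0.0865 for Nqo1 and 0.065 for Gclm). The median of the 8 was 0.10, beside the -0.56 of Hmox1. The background for these 8 was the same 18.1% higher and 21.2% lower.

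The members were also compared in how they varied among mice of the same group, with group means removed, over 20 arrays that share a normalization and, in part, batch labels. Urod went with Blvrb (r = 0.63) and Cpox (r = 0.55), and Alad with Ppox (r = 0.61), whereas Alas1 with Cpox reached 0.41. The genes most like Alas1 by this measure were 1810013D15Rik (r = 0.85), Onecut1 (0.80), Actg2 (0.79), Anks6 (0.79) and Hmcn1 (0.77). Those most like Hmox1 were Cul4a (0.82), an immunoglobulin kappa variable gene (0.80), Eps15 (0.76), Dnah9 (0.75) and Mfsd11 (0.75). All were picked as the highest among 20777 probe sets with 1 gene, and how high chance alone would reach was not tested. Their rank correlations were 0.57 to 0.81 with Alas1 and 0.59 to 0.78 with Hmox1. Alas1 varied mostly among the 0 h livers (SD 0.48 in KO and 0.60 in WT, against 0.12 and 0.15 at 12 h), so its r rests mainly on them.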

How the data were processed

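The authors deposited 1 log2 expression value per probe set and array (GeneChip Mouse Gene 1.0 ST), after RMA, which the submitters' notes name without a version; background and normalization are therefore part of the values. Of 35557 probe sets, 9868 without values were left out and 25689 were tested with no filter. Gene names came from the platform annotation (RefSeq identifiers changed 0 symbols). Groups came from the labels. A linear model with 1 mean for each of the 4 groups was fitted in limma 3.58.1 (R 4.3.3) with empirical Bayes variances, and 7 contrasts were adjusted by Benjamini-Hochberg, with a threshold of 0.05. The fit was tested on simulated data. As alternatives, the batch label was a fixed or a random block, and the fit was repeated with only the arrays compared, bright probe sets, quantile normalization, median centring, an intensity trend, array weights and leaving out arrays. The members and lists were chosen with earlier results of these data known. From the lists, the called genes with the 4 largest rises and 4 largest falls over both genotypes were named, and Alas2, Hmox2 and Blvra; of marker lists, up to the first 3 defining genes by list order. Cd163, Csf1r, Bach1, Nfe2l2, Mafg, Mafk and Maff were named, and single arrays left out for genes outside the members, after their values were seen. Lists use the brightest probe set of a gene.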

Additional observations from a re-analysis of the deposited data

Results flagged for a closer look

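Alad in KO livers at 0 h had 1 mouse apart from the rest: mouse 77 was at 11.60, against 11.74 to 11.75 in the other 4 mice. The gap took up a share of 0.912 of the group's range. Chance flags about 1 in 20 groups, and 36 groups were examined.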

How the results depend on the processing

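Of 63 member results (9 genes in 7 comparisons), 48 kept their direction and their side of the threshold under every refitted alternative, among them all those of Urod and Alas1, and the time differences of Hmox1. This count leaves out the values within single batch labels, where KO minus WT of Alas1 at 0 h was 0.08 and 0.83 in labels 1 and 2, against -0.32 over all 0 h livers, and where Alad and Uros also took both signs in labels 1 to 4. None of the 36 genotype results passed under any alternative (lowest adjusted p = 0.220). Over all probe sets the genotype calls were few but unsteady: at 12 h 6 as deposited, and 0 to 23 under other settings and 1 to 37 leaving out 1 array; over both times 3, and 1 to 4 and 2 to 9. The number of members called between 12 h and 0 h in WT was 5 with each array centred on its median, against 3 as deposited, because centring moves every 12 h value up. Leaving out 1 array gave 3 to 4 members in WT, 4 to 6 in KO and 6 over both genotypes. Uros between 12 h and 0 h over both genotypes passed with quantile normalization (-0.21, adjusted p = 0.0110). Alad and Fech in WT passed with centring (0.32, adjusted p = 0.0196 and 0.25, adjusted p = 0.0433).

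The 9 results that turned direction in a refit were all uncalled and near 0. KO minus WT of Alad at 0 h was 0.000556 without WT mice 80 and 170 and ran from -0.0986 to 0.00559 leaving out 1 array. The difference of genotype effects of Alad was 0.00569 with quantile normalization (-0.0965 to 0.0284 leaving out 1 array), and that of Blvrb ran from -0.000932 to 0.146. KO minus WT of Uros at 0 h ran from -0.0091 to 0.0913 and of Fech at 12 h from -0.0220 to 0.0923. At 12 h, KO minus WT of Ppox was 0.0183 with quantile normalization and 0.0163 without WT mice 80 and 170 (-0.0710 to 0.0673), and that of Hmox1 was 0.0185 and 0.0230 (-0.0598 to 0.0230). The time difference in WT was 0.0643 for Uros with centring (-0.0570 to 0.0180), and for Blvrb -0.0320 with quantile normalization and -0.0333 without WT mice 80 and 170 (-0.0573 to 0.0458). The cause was not tested. No paired analysis was possible because the mouse numbers mark different animals in each group.

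With 5 mice a group, no genotype difference of a member passed the threshold on the adjusted p. The intervals are not adjusted for the number of probe sets tested. Those of Uros at 12 h, Urod at 0 h, and Cpox and Blvrb over both times left out 0. Where a printed interval held 0, a difference of a size inside it could not be told from 0. Signal over background of single probes is not in the values, so a limit on dim probes could not be set.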
